A study of Mus musculus with 9 samples.

Results

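The genes described here are 7 mouse caspases and their activating adaptor, namely Casp1, Casp2, Casp4, Casp6, Casp8, Casp9, Casp12 and Apaf1. They were chosen by name, as every probe on the array whose gene name was one of these symbols or an older alias. This gave 8 genes with 10 probes, out of 21147 named genes and 41174 probes in all. Apaf1 had 3 probes and each caspase had 1. Of these probes, 9 were well above background and entered the tests, all of them so on all 9 arrays, while the probe of Casp12 was not well above background on any of the 9 arrays.

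Caspases are cysteine proteases that are made as inactive precursors and cut their targets after aspartate. In the mitochondrial pathway of apoptosis, cytochrome c released from mitochondria binds Apaf1, which assembles into the apoptosome and activates the initiator Casp9, whereas Casp8 is the initiator at death receptors and Casp2 is activated on the PIDDosome platform. The inflammatory caspases follow a separate route. Casp1 is activated on inflammasomes and matures interleukin-1 family cytokines, and mouse Casp4, formerly called Casp11, is activated by intracellular lipopolysaccharide and cuts gasdermin D. EBF1 is a transcription factor required for the B lineage.

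Total RNA of 9 samples was hybridised to 9 Agilent 1-colour arrays. All cells were pro-B cells of the C57Bl/6 strain, transformed by A-MuLV (Abelson murine leukaemia virus), with the genotype Ebf1fl/fl;RERTCre, and 4-hydroxytamoxifen at 2 µM, which activates the Cre recombinase to delete the endogenous Ebf1, was part of the protocol of every group. EBF1ΔC cells (n = 3) carried the retroviral construct pmys-EBF1ΔC-IRES-GFP and EBF1wt cells (n = 3) carried pmys-EBF1wt-IRES-GFP, so that in both groups EBF1 came from a vector and not from its own locus. Tamoxifen was given 24 h after transduction, GFP-positive cells were sorted 5 days later, and the cells were used more than 2 weeks after that. Mock cells (n = 3) received tamoxifen without a construct and were harvested 4 days later, before they died. Sorting, time since tamoxifen, slide and scan day all differed between Mock and both EBF1 groups, so these and the presence of EBF1 cannot be told apart in any comparison with Mock. Nothing in the labels states that replicates came from independent cultures, so the p-values may measure technical spread alone. For EBF1wt replicate 3 tamoxifen appears in the description but not in the source name.

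All 10 B lineage markers examined were well above background on every array, and their summed level, on a linear scale with the 75th percentile of the array set to unity, was 881 to 911 in EBF1ΔC, 867 to 935 in EBF1wt and 274 to 288 in Mock. Of 2 Ebf1 probes, the brighter averaged 3.80 ± 0.06 in EBF1ΔC, 3.06 ± 0.17 in EBF1wt and 1.45 ± 0.28 in Mock (log2 level, SD, n = 3 each). The other ran the opposite way, since no array of EBF1ΔC or EBF1wt had it well above background, whereas all 3 Mock arrays did, with an average of -2.59 ± 0.38 (SD, n = 3). The probes well above background made up 51.4 to 53.4% in EBF1ΔC, 50.7 to 51.1% in EBF1wt and 54.3 to 56.9% in Mock.

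The probes are 60-base oligonucleotides, and the first 30 bases of those on which the results turn are shown so that the measured transcripts can be recognised. Each comes from the deposited files, in lower case throughout.
Casp1: ggttcgattttcatttgaacaaccagaatt
Casp4: tatgaattcaagaccagcctaagcaacaca
Casp9: catttcttacgtgatacactcttgtgttcc
Apaf1, probe at base 5973: aacaaaatcttgtatagggttaaggaaggt
Apaf1, probe at base 4703: ggtaaattctttgatgcattcaaattggtt
Apaf1, probe at base 1224: ccattggaaaacaagacaaatctgggcttc

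In the mm9 build (NCBI37) used by the files, the Casp1 probe lies at chr9:5306226-5306728 on the plus strand, an interval of 503 bases that is longer than the probe itself. The Casp4 probe lies at chr9:5336645-5336704 and that of Casp12 at chr9:5372258-5372317, and in RefSeq the genes Casp1, Casp4 and Casp12 follow each other on this chromosome. The Casp9 probe lies at chr4:141371786-141371845. The Apaf1 probes, numbered by the start position the files give, lie on the minus strand at chr10:90452580-90452639 (base 5973), chr10:90453850-90453909 (base 4703) and chr10:90529920-90529979 (base 1224). The longest run that any of the 10 probes shared with a probe of another gene was 15 bases. Whether a probe lies in coding sequence or in a UTR was not analysed here. By eye the Casp4 letters resemble a short interspersed repeat of the genome, so binding of other transcripts to this probe is possible for every Casp4 value below and was not tested.

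The regions just upstream of Casp1, Casp4, Casp9 and Apaf1 are shown next, because these promoters are of unlike base composition. Apaf1 is shown as the partner of Casp9 and did not reach a 2-fold difference in any comparison as processed here. Each line gives the 250 bases before the RefSeq transcription start in build GRCm38.p6, read 5′ to 3′ on the strand of the gene, with CG dinucleotides in capitals.
Casp1, chr9:5298267-5298516, plus strand: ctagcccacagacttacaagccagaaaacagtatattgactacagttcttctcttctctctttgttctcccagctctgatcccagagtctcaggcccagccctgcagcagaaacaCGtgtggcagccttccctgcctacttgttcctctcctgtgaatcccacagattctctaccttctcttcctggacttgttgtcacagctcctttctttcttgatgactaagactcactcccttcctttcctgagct
Casp4, chr9:5308599-5308848, plus strand: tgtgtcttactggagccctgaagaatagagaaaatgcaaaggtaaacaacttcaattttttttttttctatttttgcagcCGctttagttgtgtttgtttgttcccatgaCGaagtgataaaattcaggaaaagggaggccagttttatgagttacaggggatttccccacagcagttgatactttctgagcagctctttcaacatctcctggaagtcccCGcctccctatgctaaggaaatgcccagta
Casp9, chr4:141793362-141793611, plus strand: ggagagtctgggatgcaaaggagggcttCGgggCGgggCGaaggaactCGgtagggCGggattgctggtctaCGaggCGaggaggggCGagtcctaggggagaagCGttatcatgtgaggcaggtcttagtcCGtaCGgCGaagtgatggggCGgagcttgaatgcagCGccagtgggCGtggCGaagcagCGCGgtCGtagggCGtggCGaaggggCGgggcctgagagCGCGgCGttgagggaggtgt
Apaf1, chr10:91082744-91082993, minus strand: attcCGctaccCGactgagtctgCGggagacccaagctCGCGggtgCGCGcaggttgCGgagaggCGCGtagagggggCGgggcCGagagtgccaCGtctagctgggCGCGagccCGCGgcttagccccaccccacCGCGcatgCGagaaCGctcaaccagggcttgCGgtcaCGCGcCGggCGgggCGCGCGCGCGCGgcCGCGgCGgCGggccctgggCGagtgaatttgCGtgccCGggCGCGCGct

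The Casp1 window held 1 CG dinucleotide and the Casp4 window 3, against 25 for Casp9 and 42 for Apaf1. Casp12 had 1, Casp8 5, Casp6 11 and Casp2 17. The median over 32851 RefSeq promoters was 6, and 49.6% of them held at most 5, as did 5 of the 9 windows of these genes, of which Casp4 has 2 that overlap. The full palindrome bound by EBF1 was searched on both strands and occurred in 0 of the 9 windows, and in 0.779% of all promoters. Its shortened form TCCCNNGG, which the full palindrome contains, was searched in the same way and occurred in the windows of Casp2, Casp6 and Casp8 and in 19% of all promoters. The core of the interferon-stimulated response element occurred in 0 of the 9 windows and in 2.98% of all promoters. A match or its absence in such a window is a description of its letters.

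Of the 7 member genes tested, Casp1 and Casp4 were higher in EBF1ΔC than in EBF1wt, by 2.29-fold and 2.52-fold. Casp4 was 6.40-fold lower in EBF1ΔC and 16.1-fold lower in EBF1wt than in Mock. Casp1 was 2.99-fold higher and Casp9 2.08-fold lower in EBF1ΔC than in Mock. Casp2 and Casp8 passed no test in any of the 3 comparisons. Calls required a difference of at least 2-fold together with an adjusted p (Benjamini-Hochberg, over all 22355 probes tested) under 0.05. All levels below are log2 signals relative to the 75th percentile of the array, and differences are log2 differences between group means with the standard error (SE) of the fit. The 2 comparisons with Mock share the Mock arrays.

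Set against all genes, 2 of the 7 tested members were called between EBF1ΔC and EBF1wt, where 2.51% of 12046 genes were called. Between EBF1ΔC and Mock 3 of 7 were called, where 18.1% of genes were, and between EBF1wt and Mock 1 of 7, where 19.4% were. Counting directions, both calls against EBF1wt were higher, as were 1.29% of genes, and against Mock 1 was higher and 2 lower in EBF1ΔC (6.25% and 11.9% of genes) and 1 lower in EBF1wt (12.8%, with 6.61% of genes higher). By the adjusted p alone 2, 5 and 3 members passed in these comparisons, where 6.92%, 63.3% and 65.7% of genes did, so the counts against Mock under that rule are near the background. Over all probes, 1.99%, 22.3% and 23.5% were called. The median log2 difference over all genes was -0.01 for EBF1ΔC against EBF1wt, 0.10 for EBF1ΔC against Mock and 0.12 for EBF1wt against Mock.

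**Figure D1:**
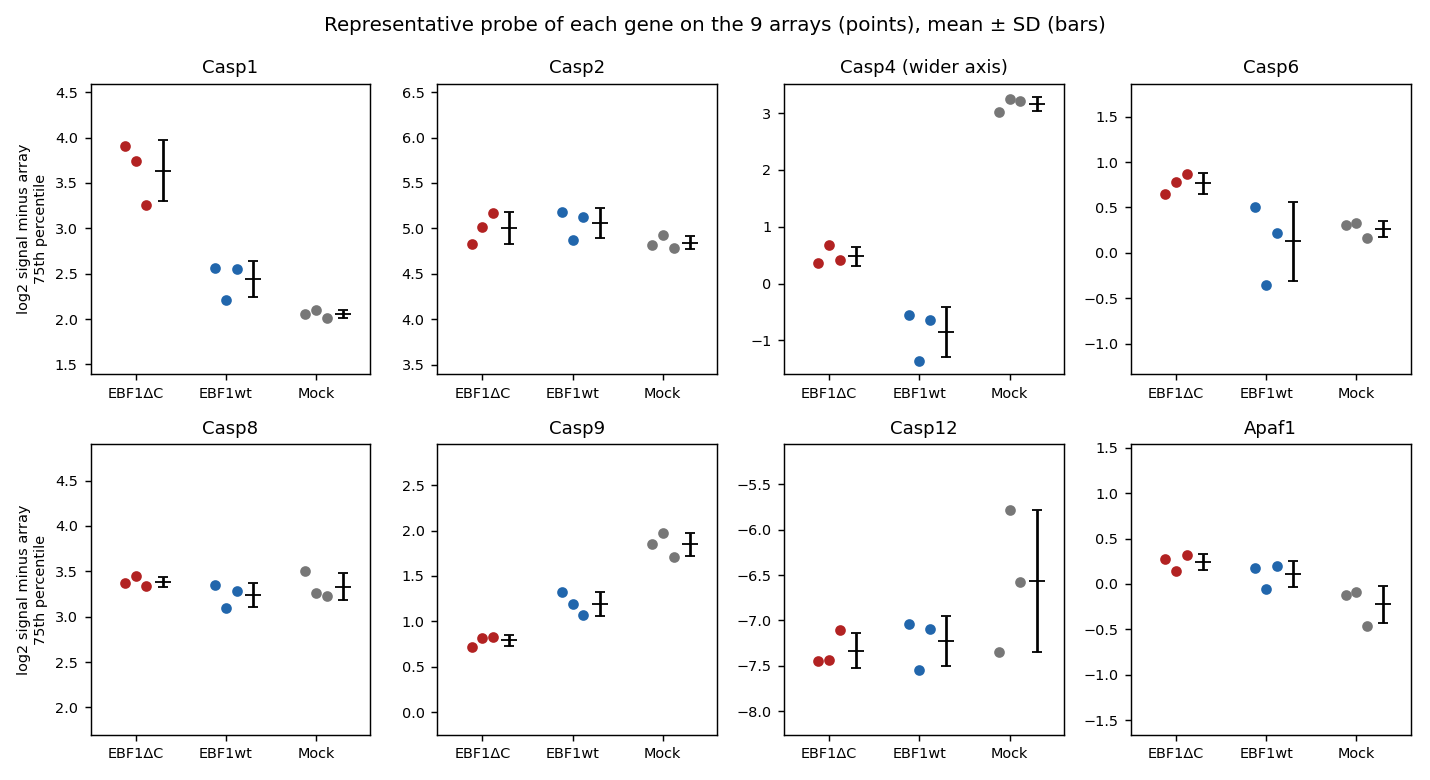
Level of each caspase and of Apaf1 on every array, as log2 signal relative to the 75th percentile of that array (vertical axis), for the 3 groups EBF1ΔC, EBF1wt and Mock, with points for arrays. Casp4 lies between 3.02 and 3.24 in Mock and below 1 in both EBF1 groups, while Casp2 and Casp8 overlap in all 3 groups. Casp12 is not well above background on any array, so its points are not read as levels.

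Among the inflammatory caspases, Casp1 had levels of 3.91, 3.74 and 3.26 in EBF1ΔC, 2.57, 2.21 and 2.55 in EBF1wt, and 2.05, 2.10 and 2.01 in Mock. All 3 EBF1ΔC arrays lay above all EBF1wt arrays, which in turn lay above all Mock arrays. EBF1ΔC exceeded EBF1wt by 1.19 (SE 0.17, 95% interval 0.81 to 1.58, limma adjusted p = 0.00697). Against Mock, the difference was 1.58 in EBF1ΔC (SE 0.17, limma adjusted p = 9.02e-05) and 0.38 in EBF1wt (SE 0.17, limma adjusted p = 0.0737), which did not pass. How many of all genes show no overlap between arrays was not counted. Median scaling made the EBF1wt difference 1.09 and called, but it moved the median of all genes in that comparison to 0.82. In EBF1ΔC against Mock it moved the median of all genes to 0.65. Both shifts are part of every median-scaled difference from Mock below. In RNA of whole cell populations, fewer cells with a transcript and less of it per cell cannot be told apart.

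Casp4 levels were 0.36, 0.67 and 0.41 in EBF1ΔC, -0.55, -1.36 and -0.63 in EBF1wt, and 3.02, 3.24 and 3.22 in Mock. The groups did not overlap, with Mock highest and EBF1wt lowest, so that the order of the groups was unlike that of Casp1. As processed intensities, the same probe gave 596, 659 and 667 in EBF1ΔC, 335, 185 and 327 in EBF1wt, and 3879, 4202 and 3572 in Mock. All of these were well above background and none was saturated. EBF1ΔC exceeded EBF1wt by 1.33 (SE 0.21, 95% interval 0.86 to 1.80, limma adjusted p = 0.00971). Against Mock, Casp4 fell by 2.68 in EBF1ΔC (SE 0.21, limma adjusted p = 1.61e-05) and fell by 4.01 in EBF1wt (SE 0.21, limma adjusted p = 1.88e-06).

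Both EBF1 groups shared 2 slides, which allowed these differences to be read within a slide. On the slide with EBF1ΔC replicate 3 and EBF1wt replicate 2, EBF1ΔC was higher by 1.04 for Casp1 and by 1.77 for Casp4. On the slide with EBF1ΔC replicate 1 and EBF1wt replicate 3, it was higher by 1.36 for Casp1 and by 0.99 for Casp4. With the slide as a fixed term neither call held, since Casp1 then differed by 1.2 (limma adjusted p = 0.0709) and Casp4 by 1.38 (limma adjusted p = 0.124).

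Myeloid cells carry both inflammatory caspases, so their markers were read beside them. The summed level of 11 myeloid markers, on the linear scale, was 8.29 to 16.7 in EBF1ΔC, 0.91 to 3.57 in EBF1wt and 7.23 to 7.85 in Mock. Of these markers, 3 were well above background on all arrays in EBF1ΔC, 4 in EBF1wt and 4 in Mock. Of the 4 tested, only Lyz2 was called between EBF1ΔC and EBF1wt, higher in EBF1ΔC by 3.10 (limma adjusted p = 0.0284). Cd68 differed by 0.64 and Tyrobp by -0.997 (limma adjusted p = 0.0342 and 0.0352), both under 2-fold. Fcgr3 differed by 0.35 (limma adjusted p = 0.839). Lyz2 had the highest mean log2 level in EBF1ΔC (3.59) and Fcgr3 in Mock (2.16), so different genes led these sums. Adgre1, Mpo, Elane and S100a8 were not well above background on any array of any group. Itgam, Csf1r and Cd14 were each well above background on 2 of 3 Mock arrays and on none of the EBF1wt arrays, and among EBF1ΔC arrays only Cd14 was, on 1. Against Mock, Lyz2 was higher and Cd68, Fcgr3 and Tyrobp were lower in both EBF1 groups. The part of these markers in the Casp1 and Casp4 results was not tested.

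Casp12, a rodent caspase of the same gene cluster, had processed intensities of 2.39 to 8.07 over the 9 arrays, all below the background criterion, so no level or difference is given for it.

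Casp9 and Apaf1 are the initiator and the scaffold of the apoptosome. Casp9 levels were 0.72, 0.82 and 0.83 in EBF1ΔC, 1.32, 1.19 and 1.06 in EBF1wt, and 1.86, 1.97 and 1.71 in Mock, with no overlap between any of the groups. Against Mock, Casp9 fell by 1.06 in EBF1ΔC (SE 0.10, limma adjusted p = 4.72e-05) and was called. That call did not hold without Mock replicate 2, where the difference was -0.99, or with arrays scaled to the median, where it was -0.51. In EBF1wt the difference from Mock was -0.66 (SE 0.10, limma adjusted p = 0.000559), short of 2-fold, and it was 0.05 with median scaling. Between EBF1ΔC and EBF1wt it was -0.40 (SE 0.10, 95% interval -0.63 to -0.17, limma adjusted p = 0.0570), and -0.36 and -0.34 within the 2 shared slides.

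The brightest Apaf1 probe, at base 5973, gave levels of 0.27, 0.14 and 0.32 in EBF1ΔC, 0.18, -0.06 and 0.20 in EBF1wt, and -0.12, -0.09 and -0.46 in Mock. EBF1ΔC overlapped EBF1wt, and both lay above Mock on every array. The difference from Mock was 0.47 in EBF1ΔC (SE 0.12, limma adjusted p = 0.0100) and 0.33 in EBF1wt (SE 0.12, limma adjusted p = 0.0421), both under 2-fold, and median scaling made them 1.01 and 1.03 and called. EBF1ΔC and EBF1wt differed by 0.14, with a 95% interval of -0.15 to 0.42 (limma adjusted p = 0.581). With the scaling used here the other Apaf1 probes did not show this pattern. At base 4703 the differences from Mock were 0.21 in EBF1ΔC and -0.04 in EBF1wt (limma adjusted p = 0.206 and 0.802), and at base 1224 they were -0.12 and -0.20 (limma adjusted p = 0.671 and 0.481). At base 1224 the Mock arrays themselves spread by an SD of 0.53. Quantile normalization made the differences at base 4703 0.65 in EBF1ΔC and 0.47 in EBF1wt (limma adjusted p = 0.00125 and 0.00649). Median scaling made them 0.75 and 0.66 (limma adjusted p = 0.00105 and 0.00194). At base 1224 they became 0.37 and 0.39 with quantile normalization and 0.42 and 0.50 with median scaling. None of these was called, so the disagreement between probes depended on the scaling.

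**Figure D2:**
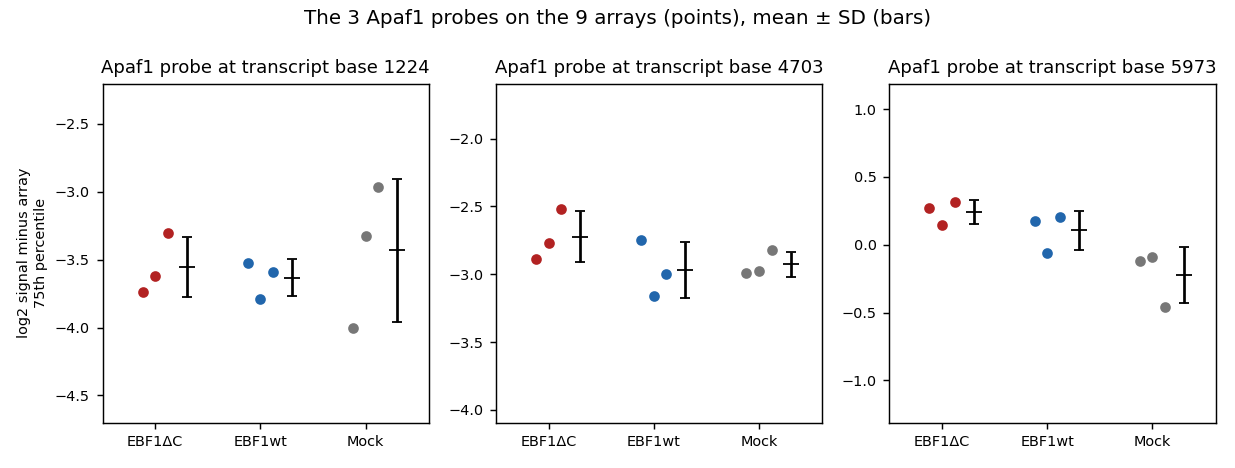
Levels of the 3 Apaf1 probes on every array, as log2 signal relative to the 75th percentile of the array, for EBF1ΔC, EBF1wt and Mock. The probe at base 5973 is above Mock on every array of both EBF1 groups, while the groups overlap at base 1224.

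Casp2, the PIDDosome initiator, had levels of 4.82, 5.02 and 5.17 in EBF1ΔC, 5.18, 4.88 and 5.12 in EBF1wt, and 4.82, 4.93 and 4.78 in Mock. The difference was -0.06 between EBF1ΔC and EBF1wt (95% interval -0.33 to 0.21), 0.16 between EBF1ΔC and Mock (-0.11 to 0.43) and 0.22 between EBF1wt and Mock (-0.05 to 0.49). These intervals leave out a 2-fold change with the scaling used here, whereas median scaling gave 0.71 in EBF1ΔC and 0.92 in EBF1wt against Mock (limma adjusted p = 0.00168 and 0.000213), still short of 2-fold. Casp8, the death receptor initiator, had levels of 3.37, 3.45 and 3.34 in EBF1ΔC, 3.34, 3.10 and 3.29 in EBF1wt, and 3.50, 3.26 and 3.23 in Mock. Its differences were 0.14 (-0.10 to 0.38), 0.05 (-0.19 to 0.29) and -0.09 (-0.33 to 0.15) in the same order, and its groups overlapped. With median scaling the differences from Mock were 0.60 in EBF1ΔC and 0.62 in EBF1wt (limma adjusted p = 0.0146 and 0.0113).

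Casp6, an effector caspase that cuts lamin A, had levels of 0.65, 0.78 and 0.87 in EBF1ΔC, 0.50, -0.35 and 0.22 in EBF1wt, and 0.30, 0.33 and 0.16 in Mock. Every EBF1ΔC array was above every array of the other groups, and EBF1wt overlapped Mock. EBF1ΔC exceeded Mock by 0.50 (95% interval 0.06 to 0.94, limma adjusted p = 0.0475) and EBF1wt by 0.64 (0.20 to 1.08, limma adjusted p = 0.0997), neither reaching 2-fold. With median scaling the excess over Mock was 1.05 (limma adjusted p = 0.000517) and was called. EBF1wt replicate 2 was the lowest of the 9 arrays, and within the shared slides the EBF1ΔC excess was 1.22 on its slide and 0.43 on the other.

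**Figure D3:**
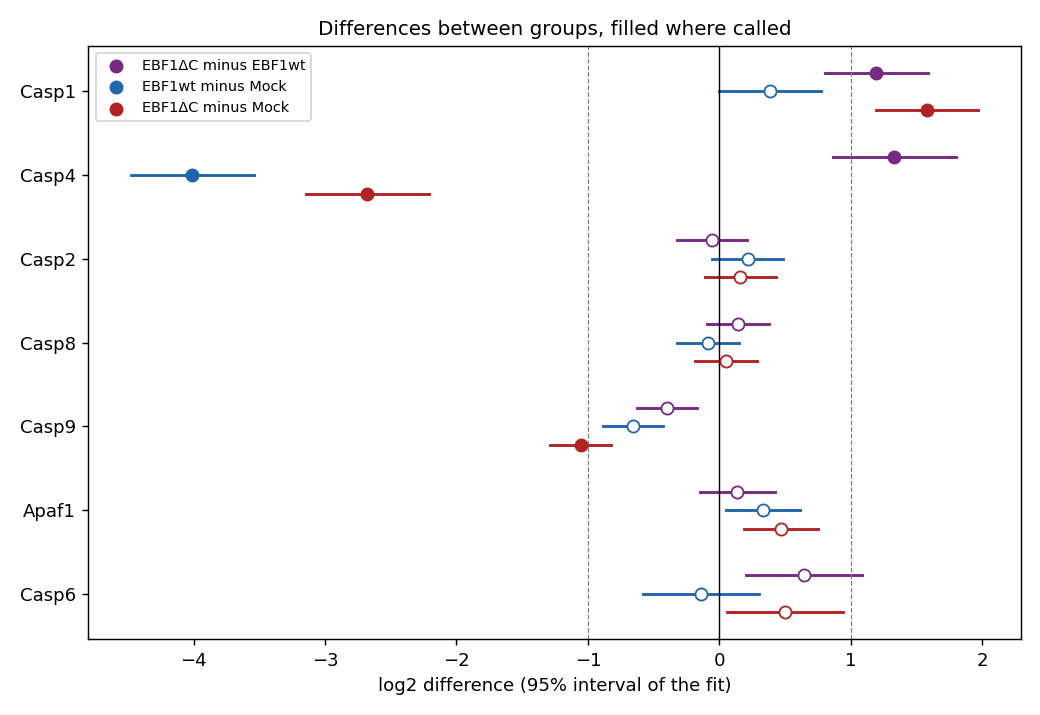
Log2 difference of each member in EBF1ΔC against EBF1wt, EBF1ΔC against Mock and EBF1wt against Mock, with 95% intervals from the limma fit. Casp4 lies at -4.01 in EBF1wt and -2.68 in EBF1ΔC against Mock, and Casp1 and Casp4 lie above 1 in EBF1ΔC against EBF1wt.

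Other genes of these pathways were read from lists chosen with earlier results known, with 48 genes tested in 6 lists. None was called by limma between EBF1ΔC and EBF1wt, where 2.51% of all genes were. Of the 48, 12 had an unadjusted p under 0.05 and 4 an adjusted p under 0.05, where 6.92% of all genes had the latter. The count called and the count by adjusted p are near these shares. The caspase substrate Parp1, a DNA repair enzyme, was 1 of the 4, with a difference of -0.75 (limma adjusted p = 0.00641). Against Mock, 11 of the 48 were called in EBF1ΔC (3 higher, 8 lower) and 12 in EBF1wt (3 higher, 9 lower), where 18.1% and 19.4% of all genes were called. Both shares of the listed genes are near this background.

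The inflammasome list, the arm upstream and downstream of Casp1 and Casp4, had 6 tested genes of 13. In both comparisons with Mock 3 of the 6 were lower and none was higher, where 11.9% and 12.8% of all genes were lower, with a median of -1.03 in EBF1ΔC and -0.97 in EBF1wt. Nlrp3, among these 3, passed the filter through its Mock arrays alone, so it could hardly have been called higher. Every other scaling called only 1 or 2 of the 6, with medians of -0.78 to -0.49 in EBF1ΔC and -0.66 to -0.26 in EBF1wt. Nlrc4, an inflammasome sensor, was lower in both, with differences of -2.16 in EBF1ΔC and -2.10 in EBF1wt. Gsdmd, the pore-forming substrate of Casp1 and Casp4, was also lower (-1.38 and -1.27), calls that median scaling lost. Nlrp3, another sensor, was called lower (-1.18 and -1.14) but was not well above background on any EBF1ΔC or EBF1wt array. With its dim values raised to each array's lowest level well above background, it was 1.46-fold lower in EBF1ΔC and 1.38-fold lower in EBF1wt. Every other scaling tried lost both calls, and the authors' values gave -0.07 and -0.09. Il1b, Il18, Aim2, Mefv and Nlrp1a were not well above background in any group.

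The death receptor list around Casp8 had 9 tested genes of 12. Against Mock, 1 was called higher and 2 lower in EBF1ΔC, where 6.25% and 11.9% of all genes were. In EBF1wt 1 was called higher and 3 lower, where 6.61% and 12.8% of all genes were. Ripk3, a kinase of necroptosis, was higher by 1.30 in EBF1ΔC and 1.27 in EBF1wt than in Mock, whereas Mlkl, the pore-former it activates, was lower in both (-2.13 and -1.84). The cytokine Tnf was lower by the same test, with differences of -1.79 in EBF1ΔC and -2.47 in EBF1wt. Fas, the receptor, was called lower in EBF1wt (-1.16), but it entered the tests through Mock alone and was not well above background on any EBF1wt array. With its dim values raised to each array's lowest level well above background, it was 1.91-fold lower there. Every other scaling lost this call, and the authors' values gave -0.08. The list medians were -0.39 in EBF1ΔC and -0.43 in EBF1wt, but -0.06 and -0.07 with normexp correction and 0.16 and 0.27 with median scaling.

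Around Casp9 and Apaf1, 1 of 12 tested apoptosome and inhibitor genes was called, Birc3, an inhibitor of apoptosis protein, which was lower than in Mock (-1.27 in EBF1ΔC and -1.46 in EBF1wt), calls that median scaling lost. Of all genes, 11.9% were lower than in Mock in EBF1ΔC and 12.8% in EBF1wt, so 1 of 12 is near the background. The list medians were 0.22 in EBF1ΔC and 0.37 in EBF1wt. Median scaling raised them to 0.77 and 1.07, with 5 and 7 genes called higher and 0 lower. It also moved the median of all genes to 0.65 and 0.82, and called 5520 and 7925 of 22355 probes higher. Htra2, a mitochondrial protease, was called lower in EBF1ΔC with normexp correction, quantile normalization and the authors' values (-1.15 to -1.08), but not as processed here (-0.95).

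None of the 3 PIDDosome genes was called, where against Mock 18.1% of all genes were in EBF1ΔC and 19.4% in EBF1wt. These 3 genes are too few to tell this from the background. Their medians against Mock were -0.18 in EBF1ΔC and -0.14 in EBF1wt, which median scaling turned to 0.37 and 0.56, and Pidd1, the scaffold, had differences of -0.50 and -0.44. Of 10 endoplasmic reticulum stress genes, Ern1 (-1.56 and -1.51) and Atf6 (-1.04 and -1.19), both stress sensors, were lower in EBF1ΔC and EBF1wt than in Mock. The shares of all genes lower there were 11.9% and 12.8%. Median scaling lost both Atf6 calls and the Ern1 call in EBF1wt, and normexp background correction and the authors' values lost both Ern1 calls. Ddit3, a stress-induced transcription factor, was called higher in EBF1ΔC (1.11) and Atf4, another, in EBF1wt (1.00), and both of these calls were lost with normexp correction and with the authors' values, that of Atf4 also with quantile normalization. Medians were -0.43 in EBF1ΔC and -0.21 in EBF1wt, which median scaling turned to 0.12 and 0.50. Among 8 tested caspase substrates Lmnb1, the nuclear lamin B1, was higher by 1.49 in EBF1ΔC and 1.40 in EBF1wt. Of all genes, 6.25% and 6.61% were higher. The list medians were -0.08 and 0.44. Median scaling made these medians 0.47 and 1.15 and called 5 of the 8 higher in EBF1wt, where quantile normalization called 2. The median of all genes with median scaling was 0.65 in EBF1ΔC and 0.82 in EBF1wt. Of 22355 probes in EBF1wt, median scaling called 7925 higher and quantile normalization 2078.

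**Figure D4:**
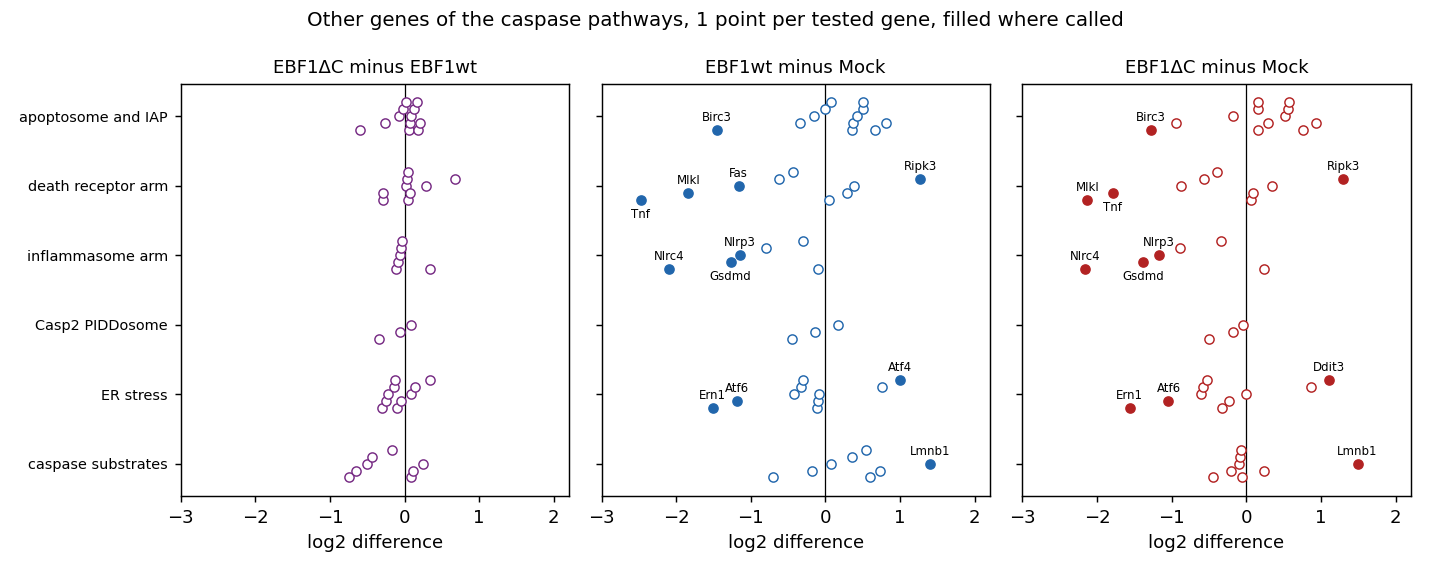
Log2 differences of the tested genes of each pathway list in each comparison, with called genes named. In the inflammasome list 3 genes lie at or below -1 in both comparisons with Mock. No listed gene is called between EBF1ΔC and EBF1wt, where 2.51% of all genes are.

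Across the 9 arrays the levels most like Casp4 were those of Ptprc, Gramd1b and Csf2rb2 (Pearson r = 0.998, 0.998 and 0.996), among 11167 genes compared, of which 950 had r above 0.9. For Casp1 they were Zfp11, Gpc1 and Mgst2 (r = 0.982, 0.979 and 0.978, with 190 genes above 0.9), and for Casp9 Ier5, Vamp5 and Car5b (r = 0.988, 0.979 and 0.978, with 510 genes above 0.9). These correlations describe arrays that fall into 3 groups and carry no test.

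**Figure D5:**
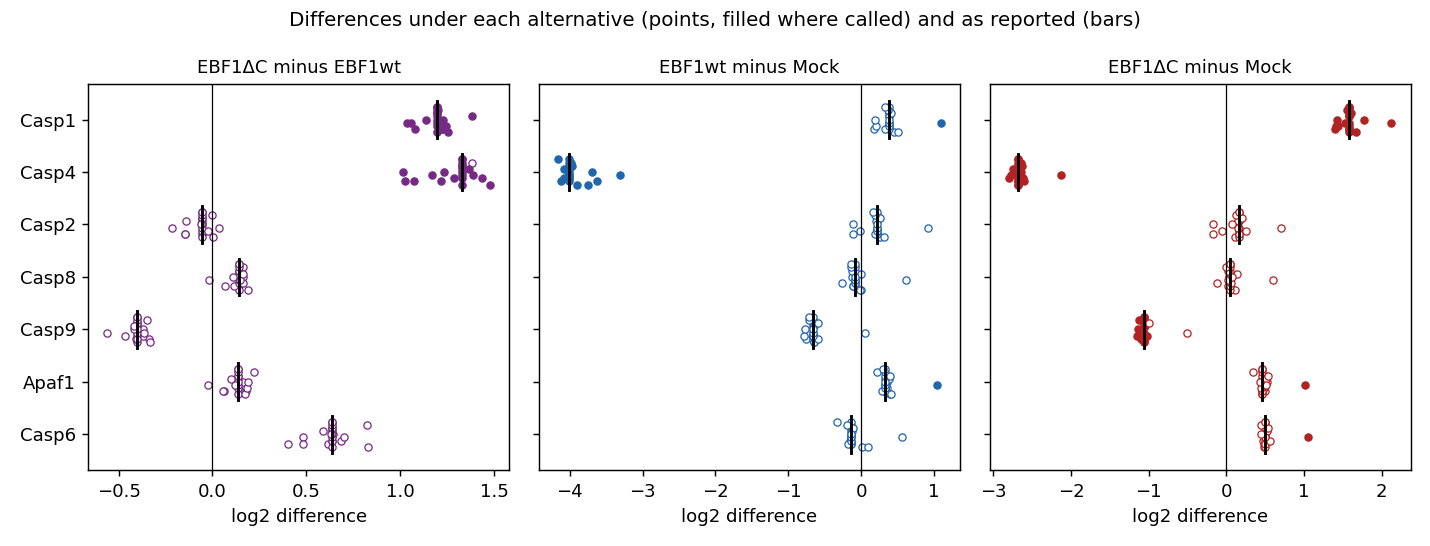
Log2 difference of each member under the main processing and under each alternative, for the 3 comparisons. Casp4 against Mock stays between -4.16 and -3.30 in EBF1wt and between -2.80 and -2.13 in EBF1ΔC.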

How the data were processed

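Spot values are the processed intensity from the Agilent software, background-subtracted and not normalized between arrays, per the file headers, which name version 10.5.1.1, whereas the submitters' processing notes name Agilent Feature Extraction 9.1. The authors also deposited log2 values, whose normalization is not given in the sources used here; they correlated with quantile-normalized log2 mean signal at r above 0.999 on each array and served as an alternative. Of 45018 spots, 43379 were not controls, from 41174 probes. Each log2 intensity was expressed relative to each array's 75th percentile (384 to 508 intensity units), outlier spots were left out and spots of a probe averaged. Testing covered the 22355 probes that at least 1 group showed well above background on each of its 3 arrays, with limma 3.58.1 (R 4.3.3), with 1 mean per group over all 9 arrays, after the scripts were tested on simulated data. The probe of highest mean stood for its gene. Precision is limited by 3 arrays per group. Names came from RefSeq by accession (27479 probes), symbol (5478) or synonym (679), or from the files (1245), and 6293 probes had none. Named genes were every member and, of each pathway list, the called genes or up to 2 where none was called, with the 3 genes most correlated with each called member. Htra2 and the inflammasome genes below background were named outside this rule, after their values were seen. Members and lists were chosen with earlier results of these data known. Marker lists of T and NK, stromal and erythroid cells were read as well. A further list is not reported here. Alternatives were other background correction and scaling, filters, slide and replicate blocks, array weights, and leaving out each array. Deviations of same-numbered arrays correlated between -0.142 and 0.138, so the numbers were not taken to pair samples.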

Additional observations from a re-analysis of the deposited data

How the results depend on the processing

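Casp4 against Mock and Casp1 in EBF1ΔC against Mock were called under every alternative run, and Casp1 and Casp4 in EBF1ΔC against EBF1wt under all but the slide as a fixed block, where 0 members were called by limma and 4 had an unadjusted p under 0.05. In the order EBF1ΔC against EBF1wt, EBF1ΔC against Mock and EBF1wt against Mock, 445, 4987 and 5252 probes were called. Normexp background correction gave 176, 1862 and 1804, the authors' values 169, 1802 and 1745, a filter on all 9 arrays 289, 3102 and 3225, and the adjusted p alone 1249, 14458 and 14954. Median scaling gave 7709 and 9903 against Mock, and 1 probe per gene 2182 and 2341. For EBF1ΔC against EBF1wt the slide as a fixed block gave 93 and a fit of only those groups 259. Leaving out 1 array gave 322 to 469, 4645 to 5209 and 4835 to 5454 probes, and 2 to 2, 2 to 3 and 1 to 1 members. Members called against Mock in EBF1wt numbered 3 with median scaling, which added Casp1 (1.09) and Apaf1 (1.03), and 3 by adjusted p alone, which gave 5 in EBF1ΔC. In EBF1ΔC against Mock median scaling called 4, gaining Casp6 (1.05) and Apaf1 (1.01) and losing Casp9 (-0.51). The share of called probes that were higher was 27.1% in EBF1ΔC and 25.9% in EBF1wt against Mock, 71.6% and 80% with median scaling, which moved the median of all genes to 0.65 and 0.82, and 41.0% and 42.6% with quantile normalization. Between EBF1ΔC and EBF1wt it was 57.1%, and 43.3% with median scaling, which moved the median to -0.16.

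None of the 36 values that changed sign was called, and the cause was not tested. For EBF1ΔC against EBF1wt these were Casp2 without EBF1wt replicate 1 (0.0036) and without EBF1ΔC replicate 1 (0.034), within a range of -0.15 to 0.034 over the arrays left out, and, with median scaling, Casp8 (-0.017) and Apaf1 (-0.021). For EBF1ΔC against Mock, Casp2 gave -0.17 with normexp, -0.060 with quantile normalization and -0.17 with the authors' values, and Casp8 -0.12 with quantile normalization. For EBF1wt against Mock, Casp2 gave -0.11, -0.010 and -0.12 with the same 3, median scaling gave 0.57 for Casp6, 0.62 for Casp8 and 0.049 for Casp9, and Casp6 gave 0.0053 with array weights and 0.10 without EBF1wt replicate 2, within -0.33 to 0.098. The Apaf1 probe at base 1224 gave -0.019 (quantile), -0.080 (median), -0.03 (array weights) and -0.047 (without EBF1ΔC replicate 3, within -0.047 to 0.17) for EBF1ΔC against EBF1wt, 0.15, 0.37, 0.42, 0.12 and 0.11 for EBF1ΔC against Mock, and 0.12, 0.39, 0.50, 0.11 and 0.031 for EBF1wt against Mock, in the order normexp, quantile, median, authors' values and without Mock replicate 3, the ends of ranges that start at -0.41 and -0.49 over the arrays left out. The probe at base 4703 gave 0.14, 0.47, 0.66, 0.12 and 0.01 for EBF1wt against Mock in that order, and 0.054 without EBF1wt replicate 2, within -0.15 to 0.054.

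With the replicate block, 375, 4968 and 5243 probes and 2, 3 and 1 members were called. Casp1 then had a limma adjusted p of 0.0211 and Casp4 of 0.0364 for EBF1ΔC against EBF1wt. Both stayed called, and the block changed no call of a member. The correlation within slides, as a random block, was -0.0282.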

Other observations

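Single marker genes of other cell types also differed between the groups. The summed level of 7 T and NK cell markers, relative to the 75th percentile on the linear scale, was 6.12 to 7.88 in EBF1ΔC, 1.90 to 3.47 in EBF1wt and 3.73 to 4.33 in Mock. Klrd1 made up most of this sum, with a mean log2 level of 2.72 in EBF1ΔC, 1.39 in EBF1wt and 1.93 in Mock. It was called higher in EBF1ΔC than in EBF1wt (1.32, limma adjusted p = 0.0157). Nkg7 (-1.50 and -3.06) and Prf1 (-1.99 and -1.62) were called lower in EBF1ΔC and EBF1wt than in Mock. Nkg7 and Prf1 entered the tests through Mock alone, and Nkg7 was not well above background on any EBF1ΔC or EBF1wt array. The summed level of 5 stromal markers was 0.271 to 0.312 in EBF1ΔC, 0.0606 to 0.0673 in EBF1wt and 0.0867 to 0.106 in Mock. The EBF1ΔC excess was that of Sparc, at a mean log2 level of -2.08 in EBF1ΔC and not well above background on any array of EBF1wt or Mock, and Col1a1, Col3a1 and Pdgfrb were not well above background in any group. The 5 erythroid markers summed to 2.39 to 5.31 in EBF1ΔC, 3.28 to 5.44 in EBF1wt and 345 to 406 in Mock, where Hba-a1 and Hbb-bt were called higher. Hba-a1 also entered the tests through Mock alone. The part of all these markers in the caspase results was not tested.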
